A study of Rattus norvegicus with 8 samples.

Results

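Long noncoding RNAs (lncRNAs) that lie between genes were followed in rat liver. The 2436 transcripts described here carry an identifier of NONCODE, a database of noncoding RNAs. Their table locus overlaps no locus of the gene table by a single base, and its span exceeds the transcript length by at least 50 bases, so that the transcript can be spliced. They made up 7.80% of the 31243 lncRNA transcripts measured, 29070 of which had NONCODE identifiers. No expression value was used to choose them.

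Intergenic lncRNAs are transcribed from their own stretches of the genome or from the flanks of a gene, and many are capped, spliced and polyadenylated as messenger RNAs are. They are known for low levels and for restriction to few tissues. In liver, individual intergenic lncRNAs have been linked to lipid and glucose metabolism, mostly through work in mouse and human, but the files give no function for any transcript named here.

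The samples were livers of wild type Sprague-Dawley rats, an outbred laboratory strain, at an age given as about 22 weeks. Rats on the normal diet (ND, 3 libraries) ate chow with 8.5% of calories from fat, 59.6% from carbohydrate and 20.3% from protein. Rats on the high fat diet (HFD, 5 libraries) had 41% from fat, 43% from carbohydrate and 17% from protein. The feeding time is given as 24 weeks, which exceeds the stated age, and each diet had 12 rats. The series looked for lncRNAs that differ in livers of rats with high blood triglycerides. The labels do not say whether a library holds 1 rat or several, so the p-values measure only the spread between these libraries.

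Gene counts totalled 12678616 to 36152937 per library. On ND, libraries 1 and 3 were deep and library 2 was shallow. On HFD, libraries 1 and 2 were deep and the other 3 shallow, so the shallow set holds 1 ND library. Between 34794 and 105219 fragments per library fell on the intergenic transcripts. Hepatocyte markers were high in every library, with summed levels of 56452 to 61984 FPKM (fragments per kilobase of transcript, scaled to library size by the authors), and all 8 were detected. HFD-3 had the highest summed level of 10 Kupffer cell and macrophage markers, 648 FPKM against at most 387 FPKM in the other libraries. It also had the highest level of 10 lymphocyte and neutrophil markers, 51.2 FPKM against at most 25.9 FPKM.

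The label of these transcripts held in part. All transcripts of a table locus share its start and end, so the span belongs to the locus and not to the transcript. For the 1542 members alone at their locus, span minus length reads as intron. The other 894 share a locus with other lncRNA transcripts, and for these the table does not show splicing. Neither exon structure nor strand is in the table. At the minimum of 50 bases, the 3 members just inside had excesses of 50, 52 and 58 bases and mean levels of 30.7, 0.407 and 0 FPKM. The 4 transcripts just outside, at 40, 41, 45 and 49 bases, were at 4.26, 0, 49.6 and 0 FPKM.

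The members were short and mostly silent in these livers. Their median length was 547.5 nt, with a range of 205 to 8474 nt. Of the 2436 members, 1296 (53.2%) were at 0 FPKM in all 8 libraries, and 387 were above 0 in every library. The filter for testing, at least 0.5 FPKM in at least 3 libraries, kept 764 (31.4%), and 376 others were above 0 but below it. In a short member 1 fragment can reach this level. For NONRATT028245.2 (478 nt), 1 fragment gave 0.881 to 1.78 FPKM. The kept members had a median level of 3.99 FPKM and a median of 37.0 estimated fragments over the 8 libraries together. For 273 of them (35.7%) the 8 libraries together held under 20 fragments, and 46 had 1000 or more. A mean level of at least 10 FPKM was reached by 233, and 28 reached 100 FPKM.

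Intergenic spliced members were detected less often than NONCODE transcripts that overlap genes, in every library. At 0.5 FPKM or more were 25.7% to 29.7% of the members per library, 60.5% to 63.1% of the 16666 spliced transcripts that overlap a gene, and 42.0% to 46.3% of the 4186 unspliced intergenic ones. The mean difference was -34.3 percentage points from the overlapping class and -17.5 points from the unspliced class. Both had a 2-sided exact sign-flip permutation p of 0.0078 over the 8 libraries, the smallest that this test can give, and the difference was negative in 8 of 8 libraries. All 8 libraries measure the same transcripts, so this p says only that the libraries agree. It does not test the classes as samples of transcripts. The median lengths of these classes were 605 nt and 647 nt, and the members took 0.716% to 0.875% of all lncRNA FPKM.

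The share detected was lower farther from a gene. The median distance to the nearest gene was 12813 bases and the largest 870 kb. The filter kept 51.9% of the 432 members within 1 kb of a gene and 37.3% of the 397 between 1 and 5 kb. It kept 26.8% of the 1058 members between 5 and 50 kb and 19.7% of the 548 beyond 50 kb. Library by library, the share at 0.5 FPKM or more ran from 42.6% to 50.5% within 1 kb and from 15.5% to 19.3% beyond 50 kb. The ranges of neighbouring bins did not overlap. The bins were chosen after the data were seen, and the order is a description with no test.

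**Figure D1:**
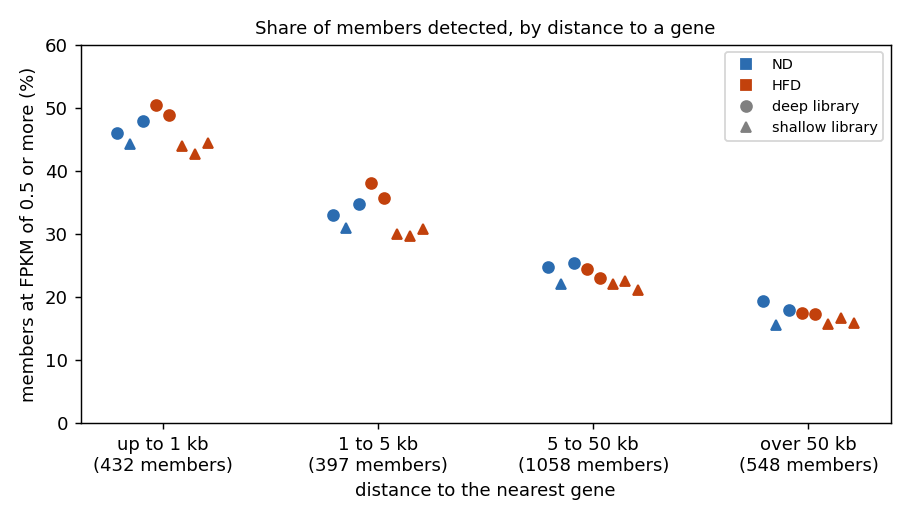
The vertical axis gives the percentage of members at 0.5 FPKM or more and the horizontal axis 4 bins of distance to the nearest gene; each point is 1 library, blue for ND and orange for HFD, a circle for a deep and a triangle for a shallow library. In every bin the shallow libraries lie below the deep ones, with shares of 42.6% to 50.5% within 1 kb and 15.5% to 19.3% beyond 50 kb.

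A pair of transcripts beside Igf1 dominated the class. Igf1 encodes insulin-like growth factor 1, a hormone that the liver secretes under the control of growth hormone. NONRATT025700.2 (2666 nt) and NONRATT025699.2 (2192 nt) share a locus on chromosome 7, positions 28486967 to 28491821 (Rnor_6.0), which starts 358 bases past the end of the gene. NONRATT025700.2 was at 3965, 3129.6 and 3239.9 FPKM in ND-1 to ND-3 and at 3149.6, 3405, 2423, 2229.6 and 2796 FPKM in HFD-1 to HFD-5. HFD-3, HFD-4 and HFD-5, the shallow HFD libraries, lay below every ND library, while HFD-1 and HFD-2, the deep ones, lay within their range. On ND, the shallow library ND-2 was the lowest. NONRATT025699.2 was at 3452, 2919.7 and 2821 FPKM on ND and at 2729, 2958, 2183, 2164 and 2647 FPKM on HFD, in much the same order. The log2 differences, HFD minus ND, were -0.31 ± 0.18 (SE) and -0.28 ± 0.16, and limma's adjusted p was 0.963 for both. The other member there, NONRATT026638.2, was at 15.7 to 39.1 FPKM. The first pair took 24.2% to 34.4% of all FPKM of the class in a library, and the 10 most abundant members took 39.8% to 48.0%.

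These transcripts followed Igf1 itself. The gene was at 346, 320.1 and 311 FPKM on ND and at 319, 331, 274, 236 and 298 FPKM on HFD. Levels in the gene table and the lncRNA table were scaled separately, so they are not compared with each other. Over the 8 libraries, the log2 level of NONRATT025700.2 had a Pearson r of 0.95 with that of Igf1 (exact permutation p of 1.5e-04, adjusted 0.0020) and a Spearman rho of 0.90 (p of 0.0046, adjusted 0.017). NONRATT025699.2 had an r of 0.92 (exact permutation p of 1.2e-04, adjusted 0.0020) and a rho of 0.98. Without the libraries farthest from the median, HFD-3 and HFD-4, r was 0.94 and 0.91. After centring within each depth set it was 0.92 and 0.86.

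In all, 30 pairs of a named member and a nearest gene within 5 kb at a mean of 1 FPKM or more were correlated in this way, and adjusted values are over these 30. The relation was looked for after the data were seen. Members of a locus share fragments and are not independent.

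The next most abundant place of this kind lies past Igtp, which encodes an interferon-inducible GTPase. NONRATT004316.2 (658 nt) and NONRATT004315.2 (906 nt) share the locus on chromosome 10, positions 43654399 to 43655657, 1009 bases from the gene. NONRATT004316.2 was at 497, 654 and 495 FPKM on ND and at 564, 687, 909, 401 and 334 FPKM on HFD. The HFD libraries spread to both sides of the ND range, with HFD-3 the highest and HFD-5 the lowest of the 8. NONRATT004315.2 was at 235, 451 and 374 FPKM on ND and at 409.7, 505, 633, 262 and 204 FPKM on HFD. Igtp was likewise highest in HFD-3, at 34.6 FPKM, and lowest in HFD-5, at 12.7 FPKM. The r with Igtp was 0.98 for NONRATT004316.2 (exact permutation p of 2.0e-04, adjusted 0.0020, rho 0.90 with an adjusted p of 0.017) and 0.95 for NONRATT004315.2 (adjusted p of 0.0030). Without HFD-3 and HFD-5, the r of NONRATT004316.2 was 0.93. HFD-3 is the library with the highest immune cell markers, and their part in this was not tested.

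Members past the ends of Btbd9 and Hipk2 moved with their genes too, and both were among the 5 members with the smallest p for a higher level on HFD. Btbd9 encodes a BTB-domain protein and Hipk2 a serine/threonine kinase that acts on transcription factors. NONRATT017640.2 (661 nt, chromosome 20, 8899285 to 8900736, 1195 bases from Btbd9) was at 33.3, 22.9 and 22.3 FPKM on ND and at 46.9, 36.1, 51.2, 42.1 and 36.3 FPKM on HFD. NONRATT021347.2 (2474 nt, chromosome 4, 66438913 to 66442150, 3116 bases from Hipk2) was at 31.1, 31.5 and 35.7 FPKM on ND and at 51.1, 44.0, 51.2, 48.3 and 41.3 FPKM on HFD. For both, every HFD library lay above every ND library. The log2 differences were 0.70 ± 0.21 (SE, limma's adjusted p of 0.706) and 0.52 ± 0.16 (adjusted p of 0.740), so neither passed the test.

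In the genes, too, every HFD library lay above every ND library. Btbd9 was at 7.39, 6.94 and 6.12 FPKM on ND and at 8.78, 8.21, 9.70, 9.42 and 7.68 FPKM on HFD, with a log2 fold change of 0.34 ± 0.12 (SE, edgeR's adjusted p of 0.727). Hipk2 was at 3.75, 4.94 and 4.26 FPKM on ND and at 5.98, 5.58, 6.50, 6.54 and 5.04 FPKM on HFD, with a log2 fold change of 0.45 ± 0.12 (edgeR's adjusted p of 0.419). Neither gene passed. The r with the gene was 0.94 for NONRATT017640.2 (exact permutation p of 5.5e-04, adjusted 0.0030, rho 0.95) and 0.89 for NONRATT021347.2 (p of 0.0036, adjusted 0.014, rho 0.90). Both members were named for their difference between the diets, and both genes differ the same way. These r values and their p therefore include the shift between the diets, and r within a diet was not computed.

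**Figure D2:**
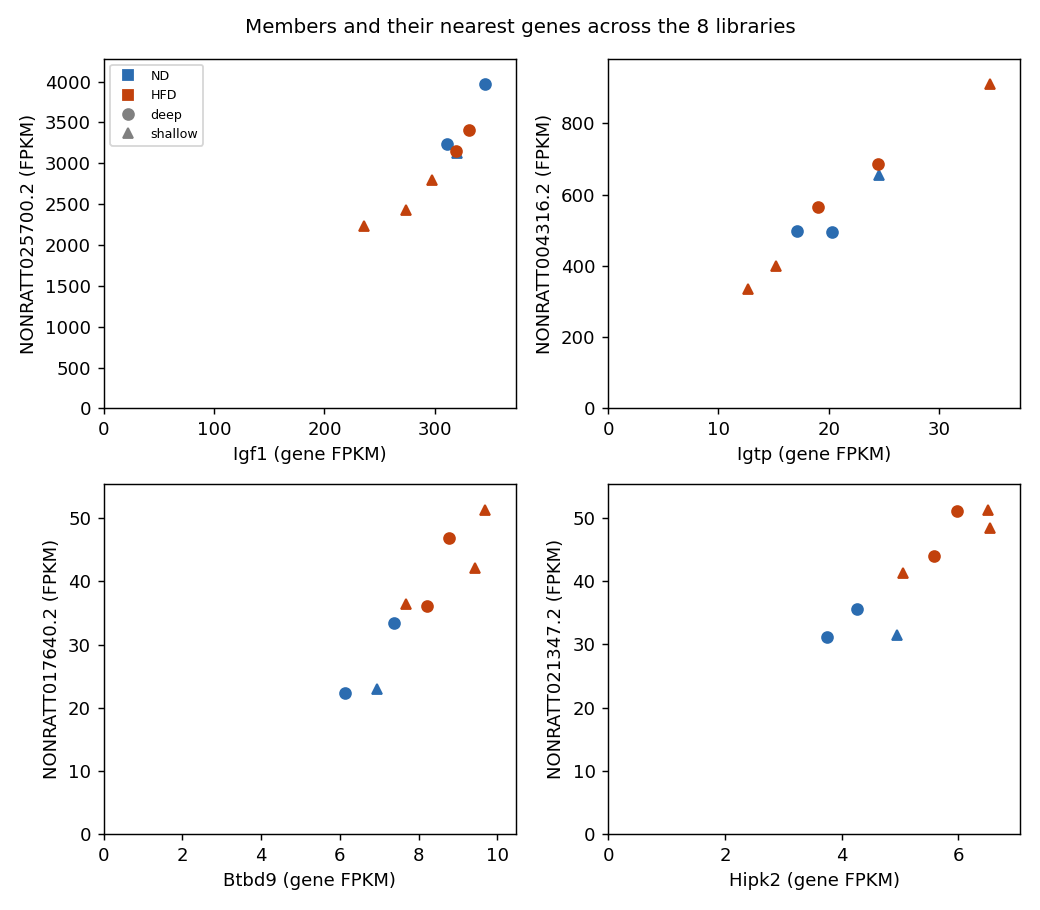
Each panel plots 1 member (vertical axis, FPKM) against its nearest gene (horizontal axis, gene FPKM) in the 8 libraries; blue is ND, orange HFD, circles deep and triangles shallow libraries, and both axes start at 0. Points rise together in all 4 panels, with r from 0.89 to 0.98, and HFD-3 is the topmost point in the Igtp panel.

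For all 4 loci the RefSeq start positions put the member past the gene's 3′ end. The table gives no strand, and whether a member and its gene are parts of the same RNA was not tested. The median r with the gene was taken over kept members within 1 kb of a gene of at least 1 FPKM and with at least 50 fragments. It was 0.68 for 26 members at the gene's end, 0.19 for 41 at its start and 0.03 for 28 others. For these 28 the side could not be assigned from RefSeq entries and the order of flanking genes. These medians are a description, since members of a locus share fragments.

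Other abundant members lay farther from a gene or beside one at a low level. NONRATT024810.2, 4566 bases from LOC681766, ranged from 291 to 451 FPKM. On the separate scale of the genes, LOC681766 was at most at 0.0465 FPKM. NONRATT006698.2, 69867 bases from the kininogen gene Kng1l1, was at 121 to 301 FPKM. NONRATT004311.2, 1749 bases from Faxdc2, a gene of the fatty acid hydroxylase superfamily, was at 172 to 247 FPKM and had an r of -0.05 with it. None of these 3 had an absolute log2 difference between the diets above 0.21, and limma's adjusted p was 0.976 or more.

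**Figure D3:**
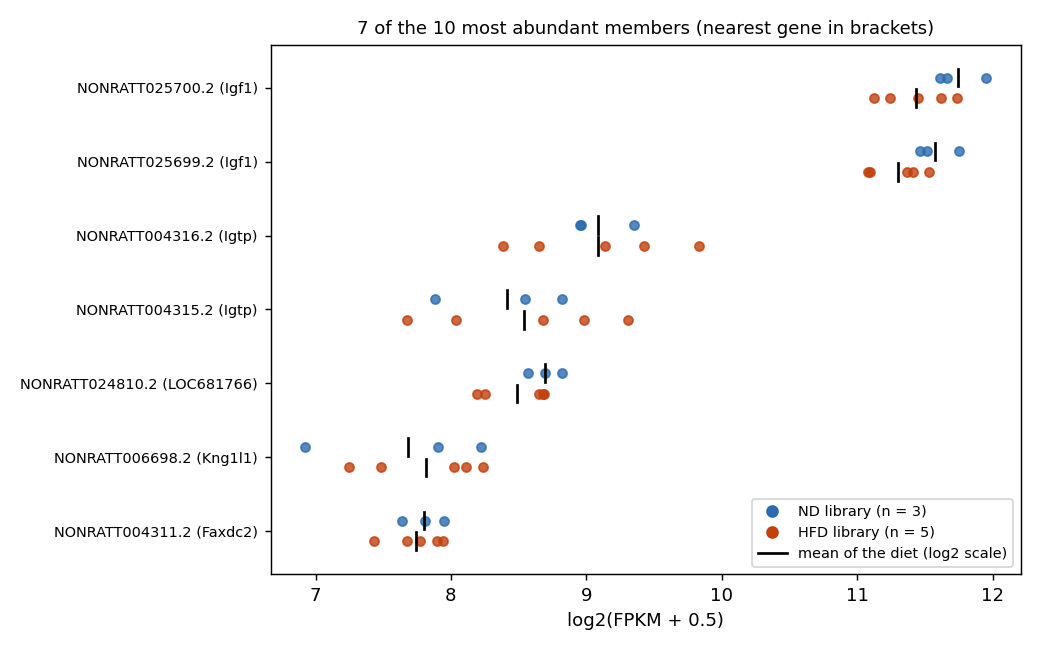
The horizontal axis is log2(FPKM + 0.5) of 7 of the 10 members with the highest mean level, 1 row each with the nearest gene in brackets; points are libraries, blue for ND (n = 3) and orange for HFD (n = 5), and black bars are diet means on that scale. The diets overlap in all 7 rows, and the pair beside Igf1 lies to the right of every other row.

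The main comparison asked which members differ between the diets, and none passed. Of 764 members tested, 0 had an adjusted p under 0.05 by limma, against 2 of all 19799 lncRNA transcripts (0.0101%). At an unadjusted p under 0.05 stood 42 members (5.50%), close to the 5.21% of all transcripts. Of these, 17 were higher on HFD (2.23%, against 2.63%) and 25 lower (3.27%, against 2.58%). Ranges of the diets that do not overlap were seen for 28 members (3.66%, against 3.82%), 8 higher (1.05%, against 1.68%) and 20 lower (2.62%, against 2.14%). A fitted difference above 0 was found for 346 members (45.3%, against 47.6%). The median log2 difference of the members was -0.06, and -0.02 over all transcripts. The median standard error of a member's log2 difference was 0.61. By edgeR's quasi-likelihood test on estimated fragments, 0 of 285 members with enough fragments passed, against 2 of 12290 transcripts (0.0163%). There 17 members (5.96%) had an unadjusted p under 0.05, near the 5.28% of all transcripts in that fit. On whole fragments summed over a locus, 0 of 323 member loci passed by edgeR, against 0.0404% of all 9889 loci, and 25 (7.74%) had an unadjusted p under 0.05, against 5.77%. Of 14148 genes, 1 passed edgeR's test (0.00707%), but that count depends on the processing: 131 passed by DESeq2, 18 without a filter, and 0 to 9 with a library left out.

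**Figure D4:**
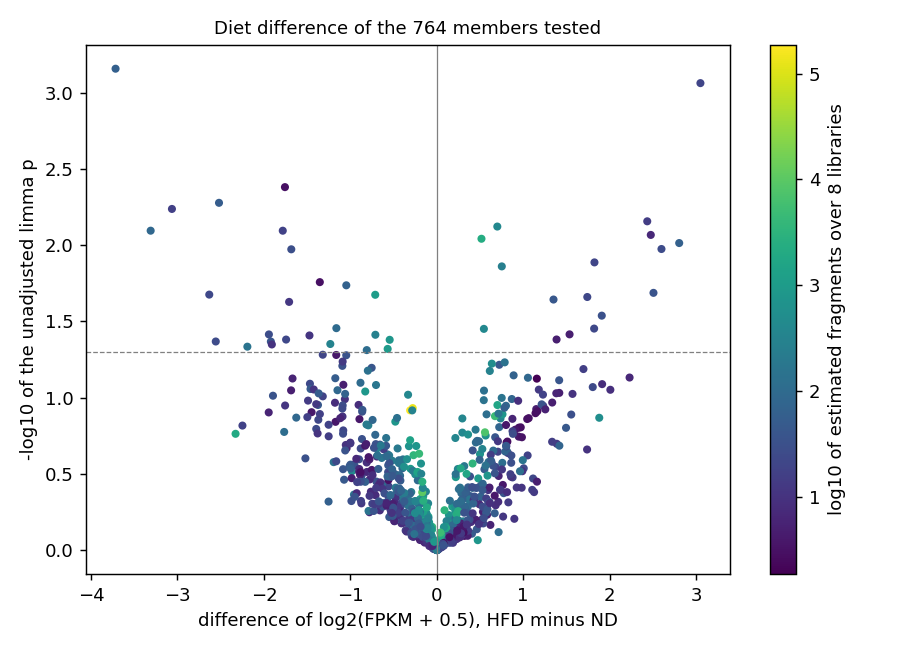
The horizontal axis is the log2 difference, HFD minus ND, and the vertical axis the negative log10 of limma's unadjusted p for the 764 members tested; colour gives the estimated fragments over 8 libraries and the dashed line a p of 0.05. Of these, 42 points lie above the line and 0 pass after adjustment.

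The level of the class as a whole did not pass the test between the diets. Summed FPKM were 20404.5 ± 1419 (SD, n = 3) on ND and 19240.4 ± 1189 (n = 5) on HFD, a log2 difference of -0.08 with a 2-sided exact permutation p of 0.196. Deep libraries had sums of 20099.6 to 21555.6 FPKM and shallow ones 18136.9 to 18819 FPKM, whatever the diet. Within the deep set the log2 difference was -0.05, and within the shallow set, with 1 ND library, -0.03. Over all 8 libraries the difference turned to 0.0071 without the 10 most abundant members and to 0.059 for the 1606 members at least 5 kb from a gene. The number of members at 0.5 FPKM or more was 680.3 ± 42.4 on ND and 660.0 ± 45.0 on HFD (exact permutation p of 0.571). It was higher in the deep libraries, with 691 to 724 in the deep libraries and 625 to 632 in the shallow ones, whatever the diet.

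The smallest p belonged to a locus near Cd83, which encodes a surface protein of mature dendritic cells and activated lymphocytes. All 4 transcripts of the locus (chromosome 17, 24444568 to 24476423, 8778 bases from the gene) are members. NONRATT012384.2 (712 nt) was at 12.9, 13.8 and 7.72 FPKM on ND and at 0.474, 0, 0, 0 and 3.97 FPKM on HFD. Every HFD library lay below every ND library, and HFD-5 stood above the other HFD libraries. Its log2 difference was -3.72 ± 0.77 (SE), with limma's adjusted p of 0.354 and an unadjusted p of 7.0e-04. NONRATT012387.2 and NONRATT012386.2 differed by -2.52 ± 0.71 and -3.31 ± 1.00, with adjusted p of 0.672 and 0.716.

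Summed over the locus, whole fragments numbered 108, 40 and 35 in ND-1 to ND-3 and 5, 0, 3, 4 and 18 in HFD-1 to HFD-5. The most in an HFD library, 18, thus came in HFD-5, and fewest of the ND libraries, 35, in ND-3. These numbers are not scaled for depth, and ND-3 was deep while HFD-5 was shallow. Summed FPKM of the locus were 45.4, 35.3 and 17.6 on ND and 2.22, 0, 2.56, 2.60 and 14.3 on HFD. On that scale ND-3 and HFD-5 lay close together. The log2 difference of the locus was -3.02 ± 0.73 (SE) by edgeR, with an adjusted p of 0.340, and -3.44 by limma, with an adjusted p of 0.515. Cd83 did not share the pattern. It was at 0.927, 1.86 and 1.86 FPKM on ND and at 1.33, 1.42, 3.76, 1.28 and 1.26 FPKM on HFD, highest in HFD-3, where NONRATT012384.2 was at 0 FPKM. The log2 fold change of the gene was 0.21 ± 0.42 (edgeR's adjusted p of 0.993).

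The smallest p for a higher level belonged to NONRATT028295.2 (389 nt, chromosome 8, 21388266 to 21394785), 4135 bases from the zinc finger gene Zfp560. It was at 1.90, 0 and 0 FPKM on ND and at 5.59, 5.72, 13.2, 3.40 and 7.71 FPKM on HFD. All 5 HFD libraries lay above the ND libraries, on 19.9 estimated fragments in all. The log2 difference was 3.05 ± 0.65 (SE), with limma's adjusted p of 0.381. At the same locus NONRATT028298.2 differed the other way, at 3.90, 11.1 and 5.68 FPKM on ND and 5.22, 0, 0, 0 and 0 FPKM on HFD (-3.06 ± 0.87, adjusted p of 0.680). The 9 transcripts of the locus together were at 44.2, 55.5 and 35.4 FPKM on ND and at 61.7, 53.9, 47.6, 43.7 and 58.9 FPKM on HFD, where the diets overlap (log2 difference 0.25, limma's adjusted p of 0.976). The opposite differences are between transcripts of 1 locus, whose fragments were divided by estimate.

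**Figure D5:**
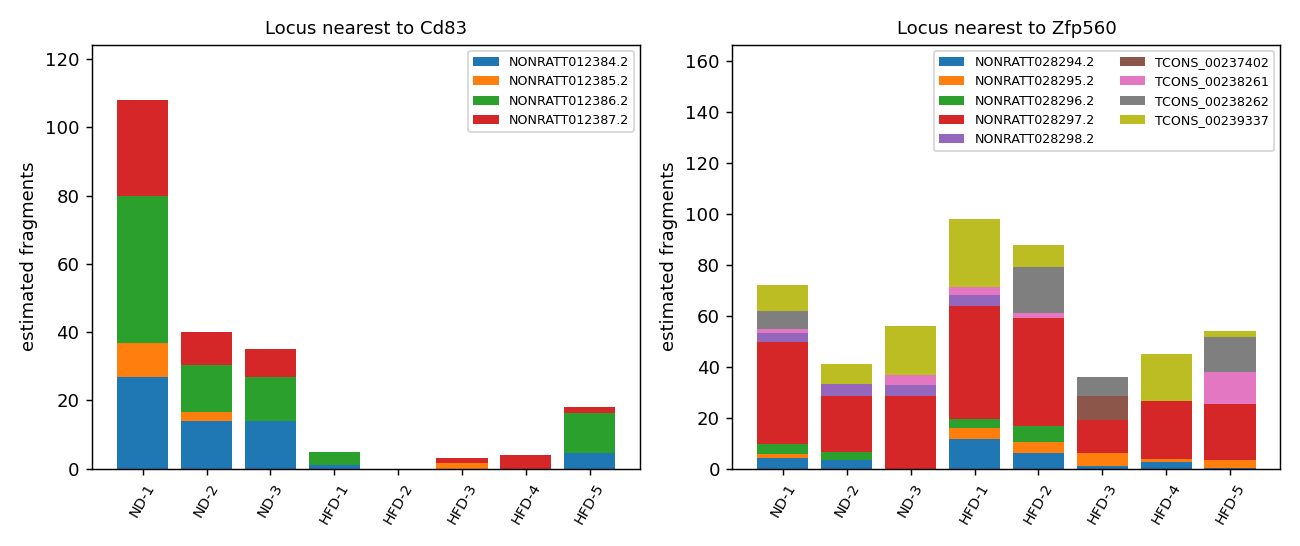
Stacked bars give the estimated fragments of each transcript (colours) of the loci nearest to Cd83 (left) and Zfp560 (right) in each library, not scaled for depth. At the Cd83 locus the bars reach 108, 40 and 35 on ND and at most 18 on HFD, while at the Zfp560 locus every library has fragments and their division between transcripts varies.

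Several other differences rested on few fragments. NONRATT028245.2, 476 bases from Yap1, which encodes a coactivator of the Hippo pathway, had 1 fragment in each ND library and 0 in each HFD library. NONRATT002379.2 near Zfp94 had 6.8 estimated fragments, all on HFD. NONRATT028245.2 passed the filter through ND alone and NONRATT002379.2 through HFD alone. Their differences are thus tied to the filter and are no support for an effect of diet. NONRATT018057.2, 21086 bases from the zinc finger gene Zbtb43 and alone at its locus, had 7, 4 and 4 fragments on ND and 0, 1, 1, 1 and 0 on HFD. NONRATT009353.2, 125357 bases from its nearest gene, 7SK, was at 0 to 1.32 FPKM on ND and 1.34 to 5.63 FPKM on HFD, from 21.0 fragments.

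Members with more fragments also had diets that did not overlap without passing. NONRATT017341.2 (370 nt, chromosome 20, 20718348 to 20719253) lies 5220 bases from Rhobtb1. It was at 8.61, 5.64 and 0 FPKM on ND and at 11.3, 20.5, 11.8, 42.5 and 32.1 FPKM on HFD, a log2 difference of 2.80 ± 0.88 (SE, limma's adjusted p of 0.759). Without ND-3, the library at 0 FPKM, it was 1.503, and with another library left out it was 2.55 to 3.60. NONRATT021016.2 (893 nt, chromosome 4, 176559569 to 176562391), 3303 bases from the oxidoreductase gene Pyroxd1, was at 191, 134 and 169 FPKM on ND and at 111, 109.5, 90.8, 0 and 64.8 FPKM on HFD. It had no fragment in HFD-4 and 101 to 543 in each other library, and it is the only lncRNA transcript of its locus. Its log2 difference was -2.33 ± 1.58 (limma's adjusted p of 0.967), and without HFD-4 it was -0.82 (adjusted p of 0.756).

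The loci with most kept members lie near Nfkb2, near Jun and at the start of chromosome 17. Nfkb2 encodes an NF-kappaB subunit, Jun a subunit of AP-1, and Cdt1, which neighbours the member NONRATT014792.2, a licensing factor of DNA replication. The promoters of Nfkb2 and Cdt1 are shown because members lie 111 and 191 bases before these genes, inside the stretch where a promoter is expected. Each runs from 250 bases before to 50 bases after the RefSeq start, on the plus strand of GRCr8, with matches to GGGCGG on either strand in capitals. Positions were not carried over between GRCr8 and Rnor_6.0, so where the member begins in the window is not marked.
Nfkb2, chr1:255108124-255108423: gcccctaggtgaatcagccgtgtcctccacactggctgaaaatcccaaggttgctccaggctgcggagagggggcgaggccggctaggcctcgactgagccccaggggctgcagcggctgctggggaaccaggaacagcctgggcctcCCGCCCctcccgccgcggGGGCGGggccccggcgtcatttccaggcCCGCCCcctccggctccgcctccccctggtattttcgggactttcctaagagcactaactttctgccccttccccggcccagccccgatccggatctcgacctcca
Cdt1, chr19:67528999-67529298: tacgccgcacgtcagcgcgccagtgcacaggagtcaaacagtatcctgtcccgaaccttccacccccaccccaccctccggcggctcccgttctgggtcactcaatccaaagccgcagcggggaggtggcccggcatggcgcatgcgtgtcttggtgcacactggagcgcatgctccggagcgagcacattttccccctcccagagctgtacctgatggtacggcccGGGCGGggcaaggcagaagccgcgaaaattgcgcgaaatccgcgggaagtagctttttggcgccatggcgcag

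The Nfkb2 window holds 3 matches to GGGCGG and 21 CG dinucleotides, and the Cdt1 window 1 match and 28 CG. Of all 33469 promoter windows in the table, 33.1% hold GGGCGG, and the median number of CG is 7. Neither window holds CCAAT or TATAAA on either strand, which 37.5% and 14.2% of the windows do.

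The 10 transcripts before Nfkb2 (chromosome 1, 266048832 to 266052891) are all members, and 7 were kept. Together they were at 46.6, 45.3 and 37.2 FPKM on ND and at 31.5, 26.8, 28.4, 31.1 and 32.9 FPKM on HFD. Every HFD library lay below every ND library. The log2 difference was -0.51 by limma (adjusted p of 0.759) and -0.49 ± 0.20 (SE) by edgeR on whole fragments (adjusted p of 0.799), so the locus did not pass. Nfkb2 was at 2.14 to 2.52 FPKM on ND and 2.12 to 4.29 FPKM on HFD, and the r of the locus with it was -0.36 (exact permutation p of 0.381, adjusted 0.490 over 9 loci, rho -0.19). Of its transcripts, NONRATT003864.2 had a rho of -0.88 with Nfkb2 (exact permutation p of 0.0072, adjusted 0.022 over the 30 pairs). Its r was -0.72 (exact permutation p of 0.044, adjusted 0.121), and only -0.38 after centring within each depth set.

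NONRATT014792.2 (723 nt, chromosome 19, 55380557 to 55381374) before Cdt1 was at 1.86, 0.964 and 1.64 FPKM on ND and at 4.18, 2.38, 5.03, 9.98 and 3.38 FPKM on HFD. All HFD libraries were above the ND libraries, and the log2 difference was 1.35 ± 0.50 (SE, limma's adjusted p of 0.838). These levels rest on 4, 1 and 3 fragments on ND and 9, 5, 5, 11 and 4 on HFD, at a locus shared with another transcript. Cdt1 itself was at 0.0586 to 0.302 FPKM.

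The Jun locus (chromosome 5, 114014421 to 114031163, 144 bases from the gene) held 9 transcripts, of which 7 are members and all were kept. Jun varied widely, at 56.3, 8.96 and 67.9 FPKM on ND and 18.9, 37.5, 86.2, 14.1 and 17.6 FPKM on HFD. NONRATT022395.2 had an r of 0.87 with it (exact permutation p of 6.0e-04, adjusted 0.0030, rho 0.94) and NONRATT022393.2 an r of -0.92 (p of 0.0013, adjusted 0.0055, rho -0.90). NONRATT022395.2 had 33.7 estimated fragments in all, nearly all of them in ND-1, ND-3 and HFD-3, and NONRATT022393.2 had 38.0. Without the 2 libraries farthest from each transcript's median, r was 0.72 and -0.87. The locus sum, 43.5 to 86.9 FPKM, had an r of -0.13 with Jun (exact permutation p of 0.765, rho -0.14). Both relations are between Jun and estimated portions of the fragments of 1 locus. Locus sums were correlated for all 9 loci of the 30 pairs that hold more than 1 transcript. Those near Igf1, Igtp, Btbd9 and Hipk2 had r of 0.94, 0.98, 0.94 and 0.89 with their genes, with adjusted exact permutation p over the 9 loci of 6.7e-04, 6.7e-04, 0.0018 and 0.0078. The 5 others, near Hlf, Zfp560, Jun, Nfkb2 and Yap1, had r of 0.57, 0.19, -0.13, -0.36 and -0.63, with adjusted p of 0.186 or more. These sums reuse the fragments of the transcripts correlated above and are no separate support.

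The largest group of kept members, 10 of 11 among 15 transcripts, lies at positions 28989 to 357154 of chromosome 17. Their levels were 0 to 32.1 FPKM, with NONRATT012694.2 (865 nt) the highest at 19.3 to 32.1 FPKM. The locus sum was 83.7 to 136 FPKM on ND and 77.0 to 133 FPKM on HFD. A locus of 6 members 50203 bases from Klhl25, a gene for an adaptor of a ubiquitin ligase, was chosen after its values were seen. Its sum was 361, 278 and 436 FPKM on ND and 599, 236, 464, 882 and 899 FPKM on HFD, a log2 difference of 0.76 ± 0.37 (SE) by edgeR (adjusted p of 0.906).

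The nearest genes of the members were looked up in 8 lists of liver metabolism genes, of 19 to 33 symbols each. Only the single nearest gene, within 50 kb, was counted, and no share over other genes was computed beside it. Kept members numbered 3 for glucose metabolism, all at the Igf1 locus, and 2 for the circadian clock. There was 1 for cholesterol synthesis and uptake and 1 for liver transcription factors. Kept members counted in this way numbered 0 for lipid synthesis, for fatty acid oxidation and ketogenesis, for lipid droplets and lipoproteins, and for bile acid and xenobiotic genes. Hlf, a clock-controlled transcription factor gene, has 2 kept members 1057 bases away (chromosome 10, 77838198 to 77839511). NONRATT005866.2 (1136 nt) was at 158, 152 and 116 FPKM on ND and at 136, 157, 59.0, 176 and 126 FPKM on HFD, lowest in HFD-3. Its r with Hlf was 0.57 (exact permutation p of 0.175, adjusted 0.404, rho 0.60), and 0.85 after centring within each depth set.

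NONRATT025040.2 (698 nt, chromosome 6, 78542642 to 78544079) lies 1725 bases from Foxa1, a pioneer transcription factor gene of the liver. It was at 40.1, 58.7 and 39.6 FPKM on ND and at 44.9, 35.9, 19.0, 54.2 and 57.7 FPKM on HFD, again lowest in HFD-3. The diets overlap. Its rank followed that of Foxa1, with a rho of 0.98 (exact permutation p of 4.0e-04, adjusted 0.0060) and an r of 0.77 (p of 0.038, adjusted 0.115). NONRATT026973.2, 344 bases from the squalene epoxidase gene Sqle, had only 8.0 fragments in all. Sqle itself was at 9.90, 31.0 and 21.6 FPKM on ND and at 2.31, 1.83, 17.2, 2.43 and 2.03 FPKM on HFD (log2 fold change -2.04 ± 0.76, edgeR's adjusted p of 0.785).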

How the data were processed

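The 8 RNA-seq libraries of rat liver were used. The submitters' processing notes name the build Rnor_6.0 and the tools TopHat2 2.0.9, Cuffdiff and Cufflinks 2.2.1. The annotation, strand setting and tool behind each value are not stated there. For genes the authors deposited raw counts with FPKM, and for lncRNA transcripts FPKM with a signal. The deposited signal equals estimated fragments times 1 constant per library: 83.4% to 84.3% of values up to 20 fragments were whole within 0.02, and 100% of sums over a locus up to 1000 fragments. The 4 pooled group columns of the lncRNA table were not used.

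Members were found by identifier, overlap and span after scaffold names were matched between the tables, which removed 1 of 2437. lncRNAs were tested with limma 3.58.1 (variance trend, log2(FPKM + 0.5), at least 0.5 FPKM in at least 3 libraries) and genes with edgeR 4.0.16 (TMM, filterByExpr, quasi-likelihood), in R 4.3.3. Tests were 2-sided, with Benjamini-Hochberg adjustment over all 19799 transcripts or 14148 genes, and fold changes of low transcripts are understated on that log2 scale. Sums, numbers and shares were tested by exact permutation with Python 3.11.15. Scripts were tested on simulated data. Alternatives were other pseudocounts, filters and scalings, no variance trend, depth as a covariate, a replicate block, sums over loci, edgeR on fragments, DESeq2 for genes, and leaving out each library.

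The named members are the 10 with the highest mean FPKM, the 5 with the smallest p per direction, up to 3 kept members near each list of metabolic genes, those of the 3 loci with most kept members, and the 5 largest differences per direction without overlap. Of the 10, 3 are not reported here. The members and lists were chosen with earlier results of these data known. Correlations with neighbours and of locus sums, distance bins, gene side, promoter motifs, the loci near Klhl25 and Lat, and tests on locus fragments were chosen after the data were seen. Promoters come from RefSeq (GRCr8), which had entries for only part of the genes. Within a diet, any pair of libraries differed by a chi-square of at least 23.4 per degree of freedom, more than sampling noise gives, and pairs across diets were not compared. Sequences of the members themselves are not used here. Counting error alone allows no firm reading of members under 20 fragments.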

Additional observations from a re-analysis of the deposited data

Results flagged for a closer look

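In the HFD group, 7 of 56 values examined had a library far from the other 4, by a gap over range above the critical value for 5 samples. For normal values, chance flags about 1 in 20 such groups; that rate does not carry over here, because many of these values are 0 or estimated portions of a locus and some of these members share a locus. All 7 members have fewer than 160 estimated fragments over the 8 libraries. At the Cd83 locus, HFD-5 held 3.97 FPKM of NONRATT012384.2 against 0 to 0.474 FPKM in the other HFD libraries, and 9.40 FPKM of NONRATT012386.2 against 0 to 1.74 FPKM. At the Jun locus, HFD-2 held 6.42 FPKM of NONRATT022392.2 against 3.04 to 3.90 FPKM, and HFD-3 held 9.90 FPKM of NONRATT022395.2 against 0 to 0.0010 FPKM. HFD-2 held 8.78 FPKM of NONRATT012689.2 on chromosome 17 against 0 to 0.794 FPKM. HFD-3 held 6.70 FPKM of the Sqle neighbour NONRATT026973.2 against 0 to 1.67 FPKM. HFD-1 held 5.22 FPKM of NONRATT028298.2 at the Zfp560 locus against 0 FPKM in the other 4.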

How the results depend on the processing

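The count of 0 members past the test held under each of 23 alternatives, leave-one-out included. The 15 named differences stayed above the threshold in all 257 alternatives. Their direction held too, but they were chosen from these same data for a small p or for no overlap. The kept direction thus follows from the choice and is no separate support. The lowest adjusted p was 0.061, for NONRATT028245.2 without the variance trend, where the 8 libraries hold 3 fragments. That member passed the filter through ND alone. Over all lncRNAs, 2 passed; 9 did without the variance trend, 1 with FPKM summed over merged loci, 4 by edgeR on locus fragments, and 0 to 3 with a library left out. Over genes, 1 passed; 18 did without a filter, 5 with depth as a covariate, 131 by DESeq2 1.42.0, and 0 to 9 with a library left out. Same-numbered ND and HFD libraries had correlations of 0.02, -0.10 and 0.02 in lncRNAs and 0.11, -0.27 and 0.07 in genes. Those numbered 2 and 3 set a deep library against a shallow one. The values thus cannot decide whether the replicate numbers pair the libraries. With a replicate block on 6 libraries, 0 lncRNAs and 7 genes passed; without the block, the same 6 gave 3 and 5. The log2 difference of summed FPKM reversed to 0.0071 without the 10 highest members and to 0.059 for members at least 5 kb from a gene, and was -0.14 to -0.04 with a library left out. The difference in the number detected, -20.3, reversed to 3.0 in the deep set and was -44.5 to -5 with a library left out. Both differences in share were negative under all alternatives. Depth limits 273 of the 764 members tested, which have under 20 fragments. With a library left out, the adjusted p of NONRATT012384.2 ran from 0.085, without HFD-5, to 0.957, without ND-2.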

Other observations

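A locus 21071 bases from Lat, which encodes an adaptor of T cell receptor signalling, was chosen after its values were seen (chromosome 1, 197705596 to 197744573). It holds 5 transcripts, 2 of them members. Its whole-fragment sum was 2128 in ND-1, 66 in ND-2 and 134 in ND-3, and 210.0, 185, 34, 70.0 and 82 in HFD-1 to HFD-5. In FPKM, ND-1 was at 410.4 and the other libraries at 14.1 to 40.8. The member NONRATT003148.2 took 30.7% of the locus in ND-1 and 22.6% to 41.4% over all libraries, so its share in ND-1 lay within the range of the rest while the locus level did not. By edgeR the log2 difference of the locus between the diets was -2.38 ± 0.75 (SE), with an adjusted p of 0.608, and by limma on summed FPKM it was -1.20, with an adjusted p of 0.969. The ND mean rests on ND-1, since ND-2 and ND-3 lay within the range of the HFD libraries.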
